A study of Homo sapiens with 15 samples.

Results

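Long noncoding RNAs are transcripts with little or no coding capacity, and 7 of them were followed here through BEAS-2B bronchial epithelial cells exposed to fine particulate matter (PM2.5). They were found by symbol among the 58219 genes of the count table. LINC00886, GCAWKR, LINC00511 and DPH5-DT were chosen by their read levels in treated against control libraries of these same data, so their treated and control values are given as a description without a test. NEAT1, MALAT1 and GAS5 were added as abundant reference noncoding RNAs, and their treatment comparisons were tested. All 7 passed the filter on low counts and were among the 17599 genes tested.

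The study asked how the transcriptome of airway cells changes with a single high or low concentration of PM2.5 and with repeated low exposure. BEAS-2B is an established line derived from bronchial epithelium, grown here without serum on collagen, and a single line was used. The particles came from filters run in Beijing in winter and were extracted in water. There were 3 libraries, 1 from each of 3 experiments, in each of 5 conditions. The number that ends each sample title was taken as the experiment number. These were a vehicle control at 24 h, 1 µg/cm2 of PM2.5 for 24 h, 30 µg/cm2 for 24 h, a vehicle control of the repeated protocol, and 1 µg/cm2 given daily. For the repeated protocol the sample labels state 7 daily doses, while the methods of the study state 6 daily doses with collection on day 7. Both 24-h doses shared the same 3 control libraries.

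NEAT1 is the architectural RNA of paraspeckles, nuclear bodies built from its long isoform and proteins such as NONO and SFPQ. MALAT1 is a nuclear RNA enriched in nuclear speckles, the compartments that store splicing factors. GAS5 hosts small nucleolar RNAs in its introns, and its spliced transcript carries a terminal oligopyrimidine start and is degraded by nonsense-mediated decay when translation is active. GCAWKR was named as a gastric cancer-associated RNA that binds WDR5 and KAT2A, LINC00511 has been studied mostly in tumor cells, and DPH5-DT is the divergent transcript of DPH5, a methyltransferase gene of diphthamide synthesis. The most abundant form of MALAT1 and the long form of NEAT1 lack a canonical poly-A tail, and the libraries were made from poly-A selected RNA. Aromatic hydrocarbons carried on combustion particles bind the aryl hydrocarbon receptor, which with its partner ARNT recognizes the xenobiotic response element, whose core is GCGTG.

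The sequences around the starts of the 4 responding RNAs are shown as a description. Of these RNAs, 3 were high together at the low dose, where 4 of 10 tested genes of the aryl hydrocarbon receptor pathway rose. At the high dose 7 of the 10 genes rose, while LINC00886 and LINC00511 overlapped their controls. Whether the receptor acts on these RNAs was not tested. Each window holds 250 bases before and 50 bases after the RefSeq start of the gene (GRCh38.p14, on the strand of the gene), and capitals mark the core GCGTG or its reverse complement CACGC. The windows were chr3:156817013-156817312 (minus strand) for LINC00886, chr15:100849502-100849801 (plus strand) for GCAWKR, chr17:72640423-72640722 (minus strand) for LINC00511, and chr1:101025596-101025895 (plus strand) for DPH5-DT.
LINC00886: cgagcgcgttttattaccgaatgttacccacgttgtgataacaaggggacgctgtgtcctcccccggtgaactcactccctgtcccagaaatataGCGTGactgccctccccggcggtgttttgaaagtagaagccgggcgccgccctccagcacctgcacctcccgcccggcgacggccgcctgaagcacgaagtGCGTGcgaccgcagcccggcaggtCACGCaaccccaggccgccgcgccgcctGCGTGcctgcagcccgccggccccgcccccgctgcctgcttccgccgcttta
GCAWKR: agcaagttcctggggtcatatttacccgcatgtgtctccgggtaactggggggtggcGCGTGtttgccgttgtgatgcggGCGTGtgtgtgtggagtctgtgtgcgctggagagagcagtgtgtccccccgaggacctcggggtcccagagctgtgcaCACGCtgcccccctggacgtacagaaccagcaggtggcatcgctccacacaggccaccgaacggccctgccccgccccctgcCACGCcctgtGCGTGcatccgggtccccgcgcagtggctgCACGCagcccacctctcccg
LINC00511: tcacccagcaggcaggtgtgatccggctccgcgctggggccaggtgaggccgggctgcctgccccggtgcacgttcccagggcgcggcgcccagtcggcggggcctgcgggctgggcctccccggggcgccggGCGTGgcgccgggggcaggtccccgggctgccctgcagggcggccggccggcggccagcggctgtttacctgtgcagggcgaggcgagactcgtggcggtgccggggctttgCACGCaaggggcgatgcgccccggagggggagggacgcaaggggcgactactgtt
DPH5-DT: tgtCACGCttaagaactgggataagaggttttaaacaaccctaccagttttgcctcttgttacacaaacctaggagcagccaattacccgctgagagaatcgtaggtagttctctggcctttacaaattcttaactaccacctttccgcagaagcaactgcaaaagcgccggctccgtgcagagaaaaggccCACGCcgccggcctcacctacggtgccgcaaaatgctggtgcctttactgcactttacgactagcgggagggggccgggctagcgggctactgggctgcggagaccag

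LINC00886 held 4 cores, at positions -155, -54, -30 and -2 counted from the gene start, and 2 of them matched the longer form TNGCGTG. The GCAWKR window held 6 cores and there were 0 in a second RefSeq window further into the locus. LINC00511 held 2 cores, 1 of them in the longer form, and DPH5-DT held 2. Of 35116 promoter windows of the same length in the table, 36.5% held at least 1 core on either strand, 12.7% at least 2, 1.63% at least 4 and 0.319% at least 6. At least 1 TNGCGTG, which also counts as a GCGTG, was present in 5.51% of windows and at least 2 in 0.245%. Base composition was 67.7% G or C in the LINC00886 window, 67.3% in GCAWKR, 78.0% in LINC00511 and 54.3% in DPH5-DT. The shares over all windows were not matched for base composition, so they do not give how common the cores are in windows as rich in G and C. Windows were also matched for MALAT1, with 2 and 1 cores in its 2 windows, and for GAS5, with 0, so that 6 of 7 RNAs had one. These matches describe letters in a window, and binding was not measured. The RefSeq start coincided with the gene start of the count table for LINC00886 and LINC00511, and lay 79 bases from it for GCAWKR and 32 bases from it for DPH5-DT. The whole DPH5-DT window also lies inside the DPH5 gene on the other strand.

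**Figure D1:**
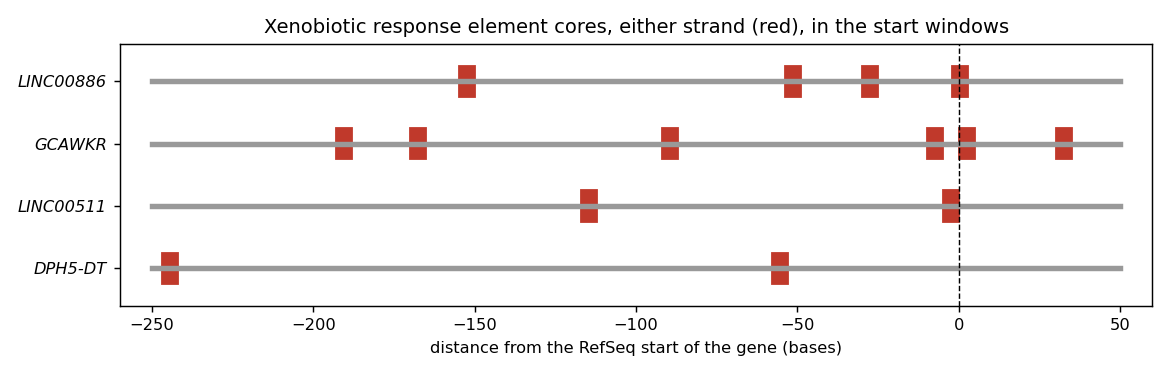
Positions of the xenobiotic response element core on either strand (red boxes) in the start windows of the 4 responding RNAs, with distance from the RefSeq gene start in bases on the x axis and a dashed line at the start. LINC00886 has 4 cores and GCAWKR 6, against 2 each in LINC00511 and DPH5-DT.

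Library totals lay between 21460981 and 34724765 assigned reads (median 29243177), and 3 reads, the detection floor used, corresponded to 0.0864 to 0.140 counts per 1000000 reads (CPM). Values are CPM after TMM scaling of the library sizes, except the marker levels in this paragraph, which are CPM of the unscaled library totals. All 8 epithelial marker genes were above 3 reads in all 15 libraries. Their summed level was 3567 to 3852 CPM in the 24-h controls, 3271 to 3817 at 1 µg/cm2, 1574 to 2327 at 30 µg/cm2, 3195 to 3705 in the repeated controls and 2127 to 2402 after daily PM2.5. The part of that fall in the values of the 7 RNAs was not tested. The 5 fibroblast markers were also detected in every library (58.2 to 129 CPM summed), of 5 leukocyte markers only CD14 was detected in every library, and 0 of 3 endothelial markers were. In bulk RNA, fewer cells that express a transcript and less of it per cell cannot be told apart. Experiment 2 of the 24-h protocol stood apart: the median absolute log2 difference between libraries of the same condition was 0.326 to 0.544 for pairs that included it and 0.0914 to 0.154 between experiments 1 and 3. Differences of the 7 RNAs from the 24-h control are therefore given with and without experiment 2. At 1 µg/cm2 the log2 difference was 0.07 with it and 0.29 without it for NEAT1. It was 0.05 and 0.33 for MALAT1, and -0.01 and -0.24 for GAS5. Adjusted p-values without experiment 2 were 0.522, 0.497 and 0.172 in edgeR. Most other 24-h results, among them those of neighbouring genes and gene lists, are given only with experiment 2 included.

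The 7 RNAs covered a wide range of levels. Per kilobase of exon, averaged over all 15 libraries, GAS5 stood at 159.7 CPM and ranked 2 among 2430 tested long noncoding RNAs, NEAT1 at 32.6 (rank 12) and MALAT1 at 22.5 (rank 17). GCAWKR followed at 3.55 (rank 155), LINC00511 at 2.94 (rank 204), DPH5-DT at 2.76 (rank 222) and LINC00886 at 1.04 (rank 734). Without division by length NEAT1 ranked 1 (742 CPM), GAS5 ranked 3 (580.0 CPM) and MALAT1 ranked 7 (197 CPM). NEAT1 was divided by 22767 exon bases, which include its long form without a canonical poly-A tail. Its level per kilobase therefore depends on that length. The order of neighbours was not fixed across conditions. In 24-h controls, the levels per kilobase of GCAWKR (2.16 ± 0.138, SD, n = 3), DPH5-DT (2.28 ± 0.0602) and LINC00511 (2.46 ± 0.283) lay within the spread of the replicates, and in repeated controls LINC00511 (1.25 ± 0.0813) lay below DPH5-DT (1.97 ± 0.242), with GCAWKR above both.

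**Figure D2:**
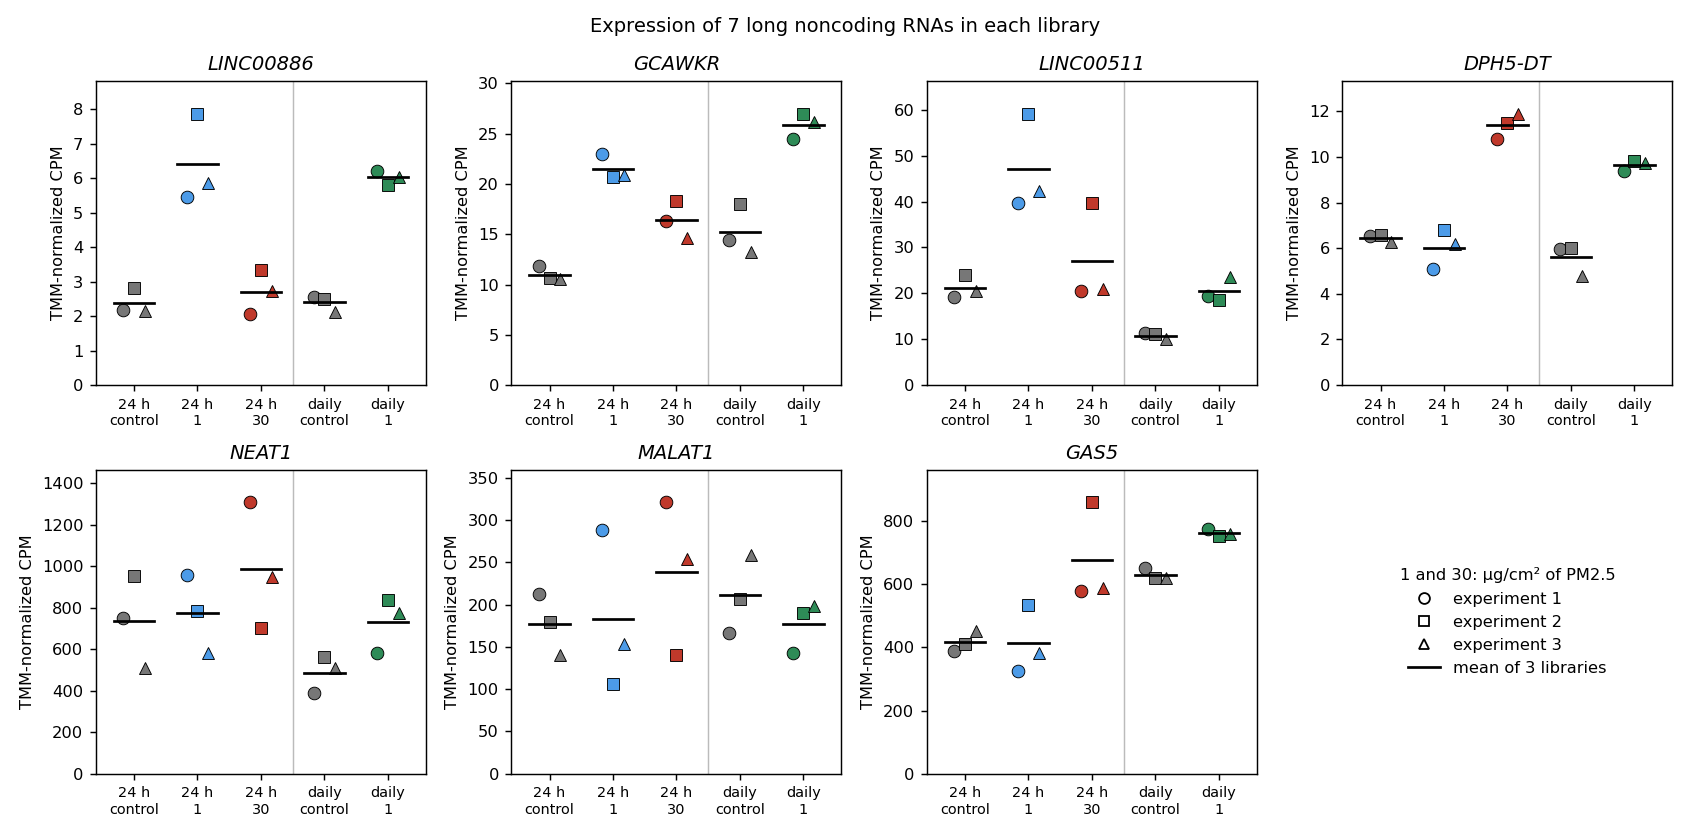
TMM-normalized CPM of each RNA (y axes, linear from 0) in each library of the 5 conditions (x axes). Points are libraries with a marker shape for each experiment, and horizontal lines are means of 3 libraries. LINC00886 is high in the low-dose libraries of both protocols and DPH5-DT in the high-dose and daily-exposed libraries, whereas NEAT1 and MALAT1 vary widely between experiments at 24 h.

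LINC00886 (chr3:156747346-156817062, minus strand, GRCh38) was higher at the low dose than at the high dose. It was measured at 2.17, 2.83 and 2.16 CPM in experiments 1 to 3 of the 24-h control and at 5.47, 7.88 and 5.87 CPM after 1 µg/cm2. After 30 µg/cm2 the values were 2.07, 3.33 and 2.73 CPM, which overlapped the control. Within experiments, the low-dose level was 2.53, 2.79 and 2.71 times the control and the high-dose level 0.955, 1.18 and 1.26 times the control. In the repeated protocol it was at 2.55, 2.51 and 2.13 CPM in controls and 6.22, 5.81 and 6.05 CPM after daily PM2.5. The fitted log2 difference from the control was 1.43 for the low dose, 0.19 for the high dose and 1.33 for daily exposure, and without experiment 2 it was 1.40 and 0.12 at 24 h. All low-dose libraries therefore lay above all control libraries in both protocols. These values rest on 57 to 201 reads per library.

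GCAWKR (chr15:100849831-100865457, plus strand) was higher than its controls under all 3 exposures. The 24-h controls were at 11.8, 10.6 and 10.5 CPM, the low-dose libraries at 23.0, 20.7 and 20.9, and the high-dose libraries at 16.3, 18.3 and 14.6. Repeated controls held 14.4, 18.0 and 13.2 CPM and daily-exposed cells 24.5, 27.0 and 26.2 CPM. No treated group overlapped its control, and at 24 h the 3 high-dose values lay between the control and the low-dose values. Within experiments the fold was 1.96, 1.95 and 1.99 at the low dose, 1.39, 1.72 and 1.39 at the high dose and 1.70, 1.50 and 1.98 after daily exposure. The log2 differences were 0.97, 0.58 and 0.77, and without experiment 2 those at 24 h were 0.99 and 0.46.

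LINC00511 (chr17:72323123-72640472, minus strand) was highest after 1 µg/cm2 for 24 h. Its values were 19.2, 23.9 and 20.6 CPM in the 24-h controls and 39.7, 59.2 and 42.3 CPM at the low dose. At the high dose it was at 20.5, 39.6 and 21.0 CPM, so that experiments 1 and 3 stood at 1.07 and 1.02 times their controls and experiment 2 at 1.65 times. The repeated controls held 11.3, 11.1 and 9.98 CPM and the daily-exposed libraries 19.5, 18.5 and 23.5 CPM. The log2 difference was 1.15 at the low dose, 0.35 at the high dose and 0.93 after daily exposure. Without experiment 2 the high-dose difference was 0.05 and the low-dose difference 1.05. Daily-exposed levels of LINC00511 (18.5 to 23.5 CPM) overlapped those of the 24-h controls, and the repeated controls lay below both.

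DPH5-DT (chr1:101025878-101087268, plus strand) had another pattern. The 24-h controls were at 6.53, 6.59 and 6.27 CPM and the low-dose libraries at 5.10, 6.79 and 6.18, with overlap between the groups. At 30 µg/cm2 it was at 10.8, 11.5 and 11.9 CPM. Repeated controls were at 5.97, 6.01 and 4.80 CPM and daily-exposed cells at 9.40, 9.82 and 9.73 CPM. Within experiments the fold was 0.781, 1.03 and 0.986 at the low dose, 1.66, 1.75 and 1.90 at the high dose and 1.57, 1.63 and 2.03 after daily exposure. The log2 differences were -0.10, 0.82 and 0.79, and without experiment 2 the 24-h values were -0.17 and 0.81. The high-dose level exceeded the low-dose level by 0.93 on the log2 scale, whereas LINC00886 (-1.24), LINC00511 (-0.80) and GCAWKR (-0.39) were lower at the high than at the low dose. For all 4 RNAs the 2 dose groups did not overlap, as for 21.6% of all tested genes. For LINC00511 this rests on 39.6 CPM at the high dose in experiment 2 and 39.7 CPM at the low dose in experiment 1. That gap is smaller than the error of read counting. The daily response minus the 24-h low-dose response was 0.89 for DPH5-DT, and -0.10, -0.21 and -0.22 for LINC00886, GCAWKR and LINC00511.

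Because these 4 RNAs were chosen for such values, the background is given only for scale. Treated and control libraries did not overlap for 3 of the 4 at the low dose at 24 h (4.44% of all tested genes), for 2 of the 4 at the high dose (22.8%) and for 4 of the 4 after daily exposure (42.9%).

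Among the reference RNAs, GAS5 (chr1:173863900-173868882, minus strand) rose at 30 µg/cm2 and did not pass the test at 1 µg/cm2 or after daily exposure. It was at 390.0, 411 and 453 CPM in the 24-h controls, at 325, 533 and 384 CPM at the low dose and at 578, 859.8 and 589 CPM at the high dose. All 3 high-dose libraries lay above all controls and above all low-dose libraries. High-dose libraries did not overlap the controls for 22.8% of all tested genes, or the low-dose libraries for 21.6%. Against the control the log2 fold-change was 0.69, with a standard error of 0.182 (adjusted p = 0.0264 after Benjamini-Hochberg correction, edgeR quasi-likelihood test), and against the low dose 0.71 ± 0.182 (SE; adjusted p = 0.0251, same test). A gene was called changed where its adjusted p was under 0.05 and its log2 fold-change was 0.6 or more in either direction, which 8.07% of tested genes met for the high dose against control and 7.84% for the high against the low dose. GAS5 was 1 of the 3 reference RNAs called in each. Within experiments the high-dose fold was 1.48, 2.09 and 1.30, and without experiment 2 the log2 fold-change was 0.45 (adjusted p = 0.00129, edgeR), below the size threshold. Without high-dose replicate 2 alone it was 0.48 (adjusted p = 0.0657, edgeR), and without control replicate 1, 2 or 3 it was 0.63, 0.68 or 0.74 with adjusted p-values from edgeR of 0.102, 0.0734 and 0.0572. With the libraries of the 2 groups alone the adjusted p was 0.125. Against the low dose, GAS5 also lost its call without low-dose replicate 1 (0.53), low-dose replicate 3 (0.64) or high-dose replicate 2 (0.48), with adjusted p-values of 0.105, 0.0936 and 0.0621 in edgeR. The same held with the libraries of these 2 groups alone (0.67, adjusted p = 0.278, edgeR). GAS5 kept this call without experiment 2 (0.69, adjusted p = 3.02e-05, edgeR) and with the experiment as a block (0.71, adjusted p = 0.00105, edgeR). Within experiments its high-dose level was 1.78, 1.61 and 1.53 times the low-dose level.

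NEAT1 (chr11:65422774-65445540, plus strand) had overlapping groups at 24 h. It was at 749, 954 and 509.6 CPM in the controls, 956, 786 and 579 CPM at the low dose and 1307, 700.2 and 947 CPM at the high dose. The high-dose fold was 1.74 and 1.86 in experiments 1 and 3 and 0.734 in experiment 2. The fitted log2 value of 0.42 ± 0.272 (SE) did not pass (adjusted p = 0.395, edgeR quasi-likelihood test), nor did 0.07 at the low dose (adjusted p = 1.00, same edgeR test). Without experiment 2 the high-dose value was 0.83 and passed (adjusted p = 0.0104, edgeR). In the repeated protocol NEAT1 was at 391, 561 and 508 CPM in controls and at 579.6, 835 and 772 CPM after daily exposure. The fold was 1.48, 1.49 and 1.52 within the 3 experiments and every treated library lay above every control, as in 42.9% of tested genes. The log2 fold-change was 0.58 ± 0.273 (SE), with an adjusted p of 0.422 in edgeR, 0.0670 with the experiment as a block and 0.0341 without experiment 2 of the 24-h protocol, and below the size threshold.

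MALAT1 (chr11:65497762-65506516, plus strand), the neighbour of NEAT1 on chromosome 11, had its lowest treated values at 24 h in experiment 2. It was at 212, 179 and 140.0 CPM in 24-h controls, 288, 106 and 154 CPM at the low dose and 321, 141 and 254 CPM at the high dose. The high-dose fold was 1.51, 0.786 and 1.81, which came to 0.43 ± 0.343 on the log2 scale (SE; adjusted p = 0.501, edgeR), or 0.69 without experiment 2 (adjusted p = 0.0391, edgeR), which passed both thresholds. After daily exposure it was at 143, 189.6 and 198 CPM against 167, 207 and 259 CPM in controls. That difference was -0.25 ± 0.343 on the log2 scale (adjusted p = 0.823, edgeR), lower in each of the 3 experiments while the groups overlapped. NEAT1 and MALAT1 thus had fitted values of opposite sign in the repeated protocol, and neither passed the test.

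GAS5 in the repeated protocol was at 653, 620.0 and 619 CPM in controls and 776, 754 and 758 CPM after daily exposure. The fold was 1.19, 1.22 and 1.22 in the 3 experiments, and the groups did not overlap, as in 42.9% of tested genes. Its fitted log2 value, 0.27 ± 0.181 (SE), did not pass (adjusted p = 0.594, edgeR), and without the 24-h experiment 2 libraries, which share the estimate of the spread, it was 0.28 with an adjusted p of 0.0163 in edgeR. None of the 3 reference RNAs was called at the low dose at 24 h, where 0.0625% of tested genes were, or after daily exposure, where 0.227% were. DESeq2, the likelihood ratio test and the experiment block also called 0 of the 3 in both, and 0 had an unadjusted p under 0.05. Nor did the daily response differ from the 24-h low-dose response for NEAT1 (0.51 ± 0.384, SE), MALAT1 (-0.30 ± 0.485) or GAS5 (0.29 ± 0.256) at adjusted p-values of 0.850, 0.946 and 0.888 in edgeR. Across all genes that comparison called 0 (0%) in edgeR with 1245 at an unadjusted p under 0.05, 181 with the experiment block, 13 with the likelihood ratio test and 75 with DESeq2. For GAS5 it was 0.52 without experiment 2 (adjusted p = 0.00843, edgeR), below the size threshold.

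**Figure D3:**
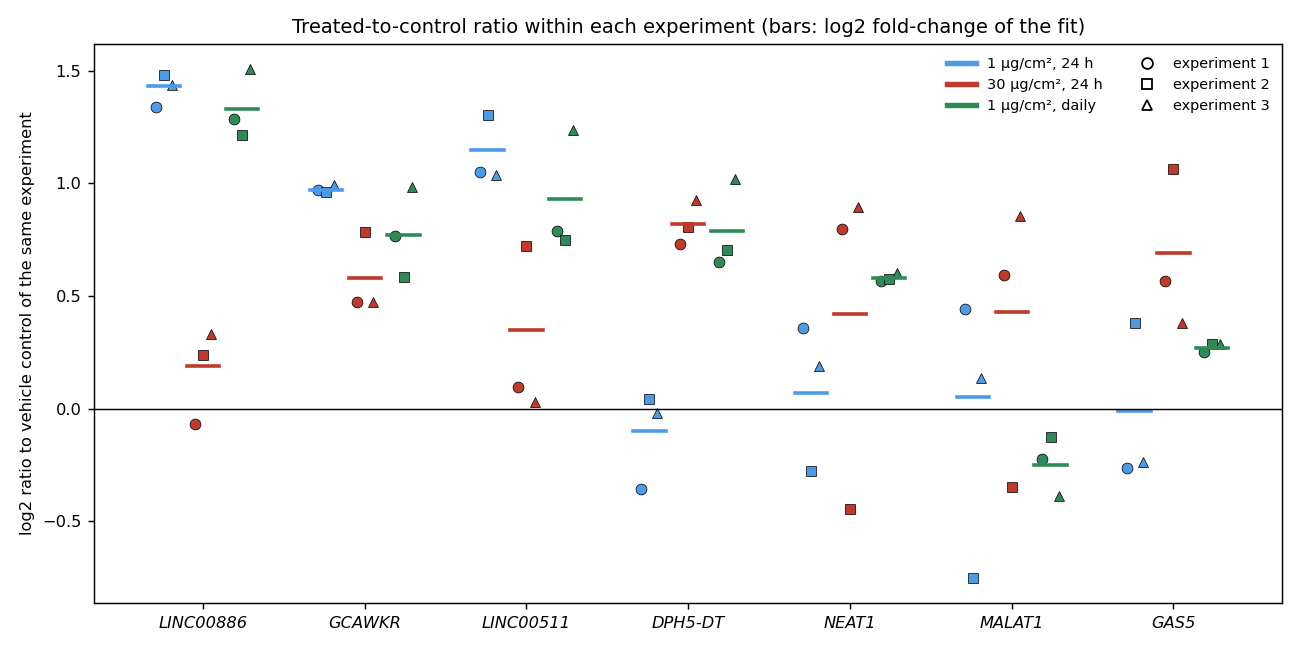
Log2 ratio of each treated library to the vehicle control of the same experiment (y axis) for the 7 RNAs (x axis), colored by exposure and shaped by experiment, with bars for the fitted log2 fold-change. The 3 low-dose ratios of LINC00886, GCAWKR and LINC00511 lie close together, while experiment 2 (squares) lies opposite to experiments 1 and 3 for NEAT1 and MALAT1 at 30 µg/cm2.

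The vehicle cultures of the 2 protocols were also compared. The control levels of LINC00886, GCAWKR, LINC00511 and DPH5-DT entered the choice of these RNAs, so their differences are again a description. LINC00511 was at a log2 difference of -0.98 in repeated against 24-h controls, with all 3 repeated controls below all 24-h controls. GCAWKR was at 0.47, with no overlap, DPH5-DT at -0.21, with no overlap, and LINC00886 at 0.01. Of the 3 reference RNAs, 0 were called by edgeR, DESeq2 or the likelihood ratio test, where 21.9% of all tested genes were called by edgeR, and 2 had an unadjusted p under 0.05. GAS5 was higher in the repeated controls by 0.59 ± 0.182 (SE; adjusted p = 0.0253, edgeR), under the size threshold. NEAT1 was at -0.60 ± 0.273 (SE; adjusted p = 0.115, edgeR) and MALAT1 at 0.25 ± 0.343 (SE; adjusted p = 0.619, edgeR). The 2 control groups did not overlap for 4 of the 7 RNAs, against 52.3% of all tested genes. Time in culture, number of washes and plating density differ between the protocols and cannot be told apart. Without control replicate 3 of the 24-h protocol NEAT1 was called, with a log2 difference of -0.84.

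The genes around the 7 RNAs were read from the same fit, taking the nearest tested gene on each side and every tested gene that overlaps. There were 18 such genes, 5 of them overlapping. At 30 µg/cm2 2 of the 18 were called (8.07% of all genes), at 1 µg/cm2 0 and after daily exposure 0. With the experiment as a block these counts were 2, 1 and 1, DESeq2 and the likelihood ratio test called 2, 0 and 0, and 5, 2 and 0 had an unadjusted p under 0.05 in edgeR. Between the control cultures 5 of the 18 were called, beside 21.9% of all genes.

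DPH5 and DPH5-DT are transcribed in opposite directions from starts 210 bases apart and share 184 exon bases on opposite strands, and the strand setting of the counting is not given in the sources used here. DPH5 was at 44.2 ± 2.23 CPM (SD, n = 3) in the 24-h control, 40.9 ± 7.11 at the low dose, 47.4 ± 11.8 at the high dose, 52.1 ± 1.11 in repeated controls and 54.1 ± 1.77 after daily exposure. Its log2 fold-changes of 0.10 ± 0.159 (SE) at the high dose and 0.05 ± 0.158 after daily exposure did not pass (adjusted p of 0.763 and 0.926, edgeR), beside 0.82 and 0.79 for DPH5-DT.

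LINC00886 starts 8419 bases from the start of LEKR1, which runs the other way. LEKR1 was near the floor, at 0.535 ± 0.192 CPM (SD, n = 3) in 24-h controls and 0.786 ± 0.283 at the low dose, and was not called under any exposure. On the other side, beyond the pseudogene METTL15P1, which was not called either, TIPARP lies 40576 bases from LINC00886 (chr3:156673235-156706770, plus strand). TIPARP encodes an ADP-ribosyltransferase induced by the aryl hydrocarbon receptor. It was at 68.2 ± 29.0 CPM (SD, n = 3) in 24-h controls, 172 ± 56.4 at the low dose and 184 ± 42.0 at the high dose. Its log2 fold-change was 1.43 ± 0.309 (SE) at the high dose (adjusted p = 0.00922, edgeR), where LINC00886 differed by 0.19. At the low dose TIPARP differed by 1.33 ± 0.308 (SE; adjusted p = 0.395, edgeR), or 1.37 with the experiment block (adjusted p = 0.000136, edgeR). In the repeated protocol it was at 35.2 ± 2.07 CPM in controls and 69.6 ± 3.25 after daily exposure (SD, n = 3). The difference was 0.98 ± 0.307 on the log2 scale (SE; adjusted p = 0.207, edgeR) and passed with the experiment block (adjusted p = 0.00150, edgeR), beside 1.33 for LINC00886.

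GCAWKR is overlapped on its own strand by 2 weakly measured transcripts, ENSG00000232386 (577 shared exon bases) and ENSG00000259604 (500 shared exon bases), so reads in the shared exons may not be assigned to 1 gene. Neither was called under any exposure, and ENSG00000259604 was higher in the repeated than in the 24-h controls (1.91 ± 0.394, SE; adjusted p = 0.00273, edgeR). The next gene, ALDH1A3, which encodes a retinaldehyde dehydrogenase, lies 12257 bases away and was at 61.1 ± 18.5 CPM (SD, n = 3) in 24-h controls, 102 ± 38.7 at the low dose and 116 ± 14.6 at the high dose. It rose at the high dose by 0.92 ± 0.265 on the log2 scale (SE; adjusted p = 0.0414, edgeR). At the low dose it differed by 0.74 ± 0.264 (adjusted p = 1.00, edgeR), and with the experiment block by 0.72, which passed (adjusted p = 0.0344, edgeR).

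LINC00511 lies between SOX9, a developmental transcription factor gene 196703 bases away, and the zinc transporter gene SLC39A11, 5477 bases away. Neither was called under any exposure, and the fitted values of SOX9 had the other sign from those of LINC00511, at -0.94 ± 0.392 (SE) at the low dose and -0.71 ± 0.412 after daily exposure (adjusted p of 1.00 and 0.537, edgeR). Between the control cultures SOX9 was lower in the repeated protocol, at -1.54 on the log2 scale (adjusted p = 0.0110, edgeR).

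Beside NEAT1 and MALAT1, the pseudogene FAUP4 fell at 30 µg/cm2, from 5.39 ± 1.62 CPM (SD, n = 3) to 2.37 ± 0.554 (log2 fold-change -1.18 ± 0.278, SE; adjusted p = 0.0152, edgeR), while FRMD8 was not called. FRMD8, the gene before NEAT1, was lower in the repeated than in the 24-h controls (-0.68 ± 0.112, SE; adjusted p = 0.000641, edgeR). GAS5 overlaps GAS5-AS1 by 42 exon bases and the first part of ZBTB37, both on the other strand, and neither was called with it at the high dose (0.04 ± 0.542 and 0.44 ± 0.433, SE). ZBTB37 was at 40.8 ± 6.94 CPM in repeated controls and 22.4 ± 4.52 after daily exposure (SD, n = 3), a log2 difference of -0.87 that did not pass (adjusted p = 0.462, edgeR) and passed with the experiment block (adjusted p = 0.00565, edgeR).

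**Figure D4:**
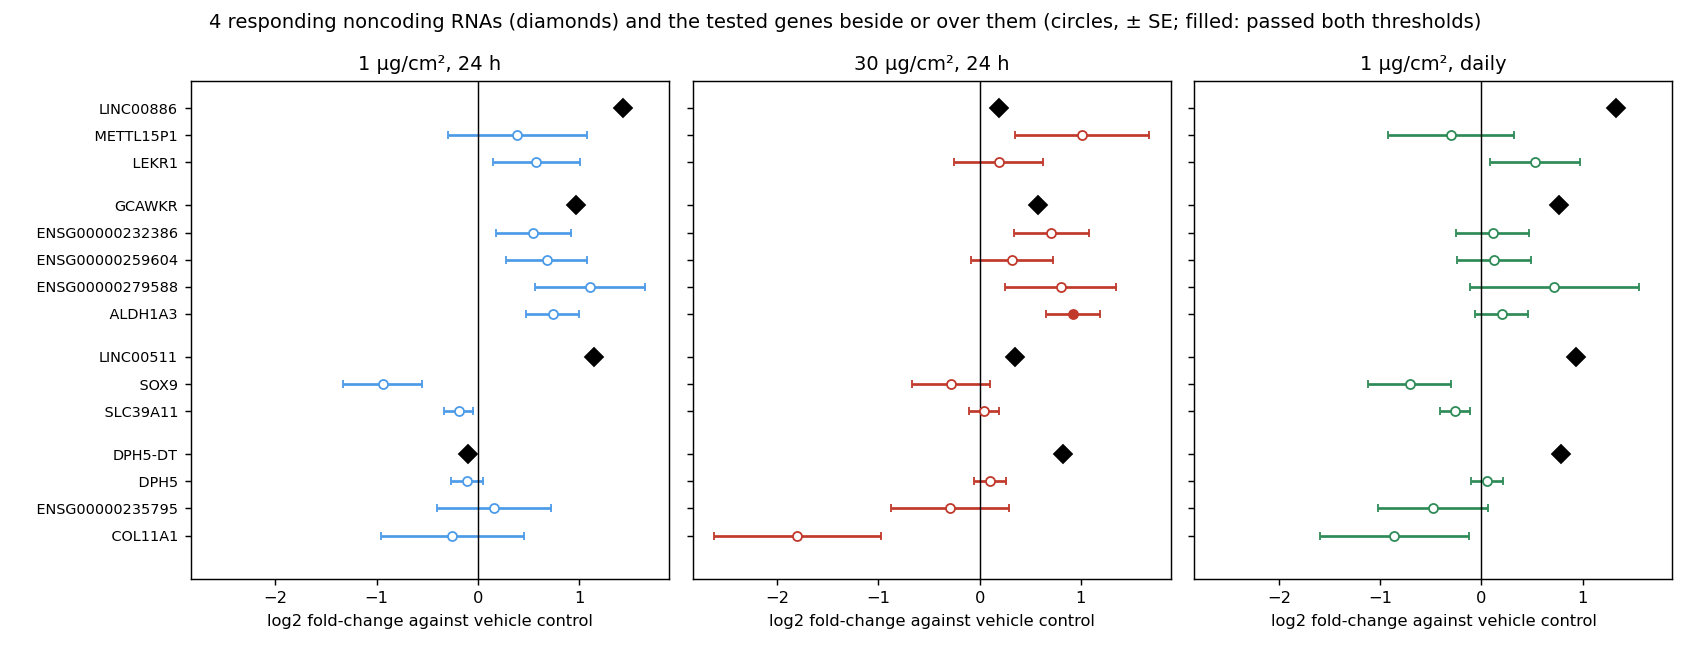
Log2 fold-change against vehicle control (x axes) for the 4 responding RNAs (black diamonds, a description) and the tested genes beside or over each (circles with SE, filled where called) under the 3 exposures. DPH5 stays near 0 where DPH5-DT lies at 0.82 and 0.79, and ALDH1A3 is the filled circle at 30 µg/cm2.

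Genes that belong to the biology of the reference RNAs were counted in lists. Of 26 snoRNA host genes, all tested and GAS5 not counted among them, 1 rose and 0 fell at 30 µg/cm2, a share of 3.85% beside 8.07% of all genes, with a median log2 fold-change of 0.11 beside 0.03 over all genes. The gene was SNHG17 (0.67 ± 0.192, SE; adjusted p = 0.0399, edgeR), and with the experiment block 3 rose and 1 fell. SNHG17 (0.77) and SNHG15 (0.74) were also higher at the high than at the low dose (adjusted p of 0.0221 and 0.0276, edgeR). At the low dose 0 of 26 were called and after daily exposure 0 of 26, with medians of -0.03 and 0.21, while 0 and 5 had an unadjusted p under 0.05, and DESeq2 called 0 and 1. Between control cultures 9 of the 26 were higher and 6 lower in the repeated protocol, or 57.7% beside 21.9% of all genes.

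Of 24 paraspeckle protein genes, 0 were called under any exposure by edgeR, by DESeq2 or with the experiment block, and their medians were -0.12 at the high dose, -0.15 at the low dose and 0.09 after daily exposure, with 7, 0 and 9 at an unadjusted p under 0.05. NONO (-0.46), PSPC1 (-0.55) and HNRNPUL1 (-0.41) were lower at the high dose, below the size threshold. Their adjusted p-values were 0.0244, 0.0433 and 0.0142 in edgeR. Between the control cultures 0 of the 24 were higher and 11 lower in the repeated protocol (median -0.47), or 45.8% beside 21.9% of all tested genes. Of 21 nuclear speckle protein genes, likewise 0 were called under any exposure in these fits (5 at the high dose, 0 at the low dose and 6 after daily exposure at an unadjusted p under 0.05), and 1 was higher and 6 were lower in the repeated controls (33.3%, beside the same 21.9%). Of 14 factors of nonsense-mediated decay, the route that degrades spliced GAS5, 0 were called under any exposure by edgeR, with medians of 0.17, -0.01 and 0.05 and with 3, 0 and 5 at an unadjusted p under 0.05, and 3 were lower in the repeated controls (21.4%). With the experiment block 1 of the 14 was called after daily exposure, as with DESeq2. SMG5 (0.51) and CASC3 (0.40) were higher at the high dose, below the size threshold, with adjusted p-values of 0.00396 and 0.0142 in edgeR.

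Of 42 other well-known long noncoding RNAs, 41 were matched and 32 tested. At 30 µg/cm2 2 rose and 2 fell, or 12.5% beside 8.07% of all tested genes. LUCAT1, an RNA induced by cigarette smoke and stress in airway cells, rose from 0.464 ± 0.391 to 5.80 ± 4.15 CPM (SD, n = 3; log2 fold-change 3.55 ± 0.760, SE; adjusted p = 0.00881, edgeR), and MIR100HG, the host of a microRNA cluster, rose by 0.66 (adjusted p = 0.0124, edgeR). MIR210HG, the host of a hypoxia-induced microRNA, fell from 2.07 ± 0.415 to 0.356 ± 0.296 CPM (-2.49 ± 0.470, SE; adjusted p = 0.00405, edgeR), and TMPO-AS1 fell by 1.32 on the log2 scale (adjusted p = 0.0253, edgeR). At the low dose 0 of 32 were called by edgeR or DESeq2 and 2 had an unadjusted p under 0.05. With the experiment block 8 were called at the high dose and 4 after daily exposure. After daily exposure DLG1-AS1 (1.74 ± 0.313, SE) and LINC00909, listed as ZNF407-AS1 (0.77 ± 0.139), rose, each with an adjusted p of 0.0401 in edgeR, and 0 fell (6.25% beside 0.227% of all tested genes). These 2, and TMEM147-AS1 (0.78 ± 0.150; adjusted p = 0.0507, edgeR), were on the list because the study had listed them from these samples, so they are not independent evidence of a direction.

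Of 12 genes of the aryl hydrocarbon receptor pathway, 10 were tested, and 7 rose and 1 fell at the high dose, 4 rose and 0 fell at the low dose, and 3 rose and 0 fell after daily exposure. These are 80.0%, 40.0% and 30.0% of the list, beside 8.07%, 0.0625% and 0.227% of all tested genes. With the experiment block 8, 7 and 5 were called. CYP1A1, the classical target, was at 1.10 ± 0.473 CPM in 24-h controls, 131 ± 36.6 at the low dose and 23.0 ± 17.2 at the high dose, and rose from 2.20 ± 1.09 to 31.6 ± 0.975 after daily exposure (SD, n = 3). CYP1A1 was lower at the high than at the low dose (-2.51 ± 0.465, SE; adjusted p = 0.00411, edgeR), as was the receptor repressor AHRR (-0.90 ± 0.191; adjusted p = 0.00875). CYP1B1 was not (-0.15 ± 0.169; adjusted p = 0.654, edgeR), and NQO1, a quinone reductase also driven by NRF2, was higher at the high dose (1.03 ± 0.167; adjusted p = 0.00179, edgeR). CYP1A1, CYP1B1 and AHRR were chosen with the results of these samples known. They are the 3 genes called after daily exposure and, with SLC7A5, the 4 called at the low dose. The study also lists SLC7A5, TIPARP and NQO1 from these samples. The shares of this list are therefore not independent evidence.

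The genes whose profiles were most like each RNA were found by the root-mean-square difference of log2 CPM over the 15 libraries, each gene first centered on its own mean, among 13844 genes with a mean of at least 1 CPM. This is a description, and the libraries share treatment groups and the spread between experiments. For LINC00886, whose own root-mean-square deviation was 0.678, they were ARTN (0.382), which encodes the growth factor artemin, LINC00857 (0.387) and GCAWKR (0.395). For GCAWKR (0.444) they were PRKCQ (0.257), LINC00888 (0.284) and C5orf63 (0.295), and for LINC00511 (0.719) CYSRT1 (0.305), TPRA1 (0.313) and MRPS24 (0.351). ARTN was at 4.14, 10.4 and 5.80 CPM in the 24-h control, low-dose and high-dose means and at 3.95 and 7.91 CPM in the repeated control and daily-exposed means, with the same order of groups at 24 h as LINC00886.

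DPH5-DT (0.423) had closer matches. They were MARS1 (0.163), the cytosolic methionyl-tRNA synthetase gene, PFDN2 (0.174), a prefoldin chaperone subunit gene, and FYN (0.188), a tyrosine kinase gene. MARS1 was at 283, 299 and 539 CPM in the 24-h control, low-dose and high-dose means and at 306 and 412 CPM in the repeated control and daily-exposed means. For NEAT1 (0.440) the nearest were PTOV1-AS2 (0.197), FTX (0.260) and AKR1E2 (0.271). For MALAT1 (0.427) they were ENSG00000239665.8 (0.137), which has no symbol, and MON2 (0.186), and for GAS5 (0.413) CXCL16 (0.153), ATP6V1G1 (0.159) and SELENOS (0.161). When the 5 group means were compared in place of the libraries, 2 of the 3 nearest genes were shared for LINC00886, 1 each for LINC00511 and DPH5-DT, and 0 for the other RNAs.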

How the data were processed

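RNA from BEAS-2B cells was sequenced as 50-base single-end reads from poly-A selected libraries. The authors aligned the reads with STAR and deposited 1 table of raw read counts per gene made with featureCounts, with coordinates that match GRCh38, the build named in the methods, although the processing notes of the labels name hg19. The annotation, strand setting and treatment of multiply assigned reads are not given in the sources used here, so overlapping genes may share or lose reads. The methods state 3 independent experiments per condition, and no depth correction was applied before deposit.

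Genes were filtered with filterByExpr and scaled by TMM, and 15 libraries with a mean for each of 5 groups were fitted by the quasi-likelihood test of edgeR 4.0.16 (R 4.3.3, earlier mode), with Benjamini-Hochberg adjustment over 17599 genes and a call at adjusted p under 0.05 with an absolute log2 difference of at least 0.6. Alternatives were other scalings and filters, DESeq2 1.42.0, the likelihood ratio test, each library left out, no experiment 2 at 24 h, the compared groups alone and an experiment block. Each sample title ends in a number, taken here as the experiment number. The labels do not say that it numbers experiments. Deviations from group means correlated at 0.201 to 0.721 between 24-h libraries of the same number (9 pairs) and at 0.121 to 0.181 in the repeated protocol (3 pairs). Between libraries of different numbers the correlations were -0.683 to 0.453 at 24 h (18 pairs) and -0.127 to -0.0341 in the repeated protocol (6 pairs). The ranges overlap at 24 h, and centering on means of 3 libraries itself lowers the values of unmatched pairs. Pairing by number within a protocol is therefore an assumption. The comparison of control cultures was planned as a test of all 7 RNAs, and its p-values are not printed for the 4 chosen ones, whose control levels entered the choice. The fitting code was tested on simulated counts. Symbols were matched to 57437 identifiers, positions were taken from the count table and promoter windows from RefSeq. Named genes were the 7 RNAs, their nearest and overlapping tested genes, the 3 genes most like each, and up to 4 called genes per list and treatment comparison by size. Genes of lists that are named beyond these were chosen after their values were seen. The RNAs and lists were chosen with earlier results of these data known. Some genes that this rule names are not reported here.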

Additional observations from a re-analysis of the deposited data

How the results depend on the processing

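Over 42 fitted values of the 7 RNAs, 1065 alternative values were computed and 1021 kept their direction and their side of the threshold or stayed within the spread of replicates. Many of the 1065 leave out a library of neither compared group, so their log2 values could hardly move. The numbers of genes called moved most. For the high dose against control, 1420 became 2681 with the replicate block, 360 with the compared groups alone, 3430 without experiment 2 and 794 to 2706 leaving out 1 library (794, 2706 and 808 without high-dose replicate 1, 2 or 3). For the low dose, 11 became 38 with no filter, 74 with the block, 34 with the likelihood ratio test, 39 with DESeq2, 2 with the groups alone, 378 without experiment 2 and 4 to 45 leaving out 1 library. For daily exposure, 40 became 92, 773, 194, 250, 1029 and 1083 in the same order, and 0 to 104. For the high against the low dose, 1379 became 2737 with the block, 149 with the groups alone, 3113 without experiment 2 and 711 to 2715 leaving out 1 library. For the difference of responses, 0 became 20 with no filter, 181 with the block, 13 with the likelihood ratio test, 75 with DESeq2, 1 with the groups alone, 1766 without experiment 2 and 0 to 63 leaving out 1 library.

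At the high dose, without experiment 2, LINC00511 was at 0.05, NEAT1 at 0.83, MALAT1 at 0.69 and GAS5 at 0.45, and GAS5 with the groups alone was at 0.69 without passing. Leaving out 1 library gave -0.04 to 0.50 for LINC00511 and 0.48 to 0.78 for GAS5. At the low dose MALAT1 was at -0.07 with the block, GAS5 at 0.01 with upper-quartile scaling and 0.00 with the 1-CPM filter, and leaving out 1 library gave -0.14 to 0.31 for NEAT1, -0.43 to 0.32 for MALAT1 and -0.24 to 0.15 for GAS5. High against low dose, GAS5 was at 0.67 with the groups alone (adjusted p = 0.278, edgeR) and 0.48 to 0.91 leaving out 1 library, LINC00511 at -1.19 to -0.62 and DPH5-DT at 0.79 to 1.00. The difference of responses of MALAT1 ranged from -0.56 to 0.18. Between controls, LINC00886 was at -0.01 with RLE scaling, the 1-CPM filter, DESeq2 and the groups alone, and at -0.09 to 0.12 leaving out 1 library. NEAT1 was at -0.84 to -0.39 leaving out 1 library. GCAWKR was at 0.47, below the size threshold, and its call is not given because its control levels entered the choice. GAS5 passed by adjusted p alone (0.59) or with no filter (0.61). The cause of these moves was not tested. The replicate block changed no call of the 3 reference RNAs. Experiment numbers were used to pair libraries within a protocol, and no block was fitted between the controls.

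Leaving out 1 library leaves 2 in its group. LINC00886 has the lowest mean level of the 7 RNAs, so depth limits it most.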

Other observations

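Of 2430 long noncoding RNAs tested, 76 were higher and 64 lower at 30 µg/cm2 (5.76%, beside 8.89% of 13795 protein-coding genes), 2 were higher and 0 lower at 1 µg/cm2 for 24 h (0.0823%, beside 0.0652%), and 6 were higher and 0 lower after daily exposure (0.247%, beside 0.232%). The median log2 difference of the class after daily exposure was 0.16, beside -0.01 for protein-coding genes. The median level of these RNAs was 0.719 CPM beside 33.1 CPM, and the share of calls rests on fewer reads. The class counts include the 4 RNAs chosen for their response, so they are not independent of that choice.

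Between the vehicle cultures 203 long noncoding RNAs were higher and 197 lower in the repeated protocol (16.5%, beside 23.8% of protein-coding genes). Of the 32 other well-known long noncoding RNAs tested, 2 were higher and 11 lower (40.6%, beside 21.9% of all tested genes), with a median of -0.27.

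At 30 µg/cm2 against 1 µg/cm2, 4 of these 32 were higher and 3 lower (21.9%, beside 7.84% of all genes). The changes of largest size were LUCAT1 (2.42 ± 0.706, SE), MIR210HG (-2.23 ± 0.472), LINC00941 (1.94 ± 0.433) and UCA1 (-1.70 ± 0.390), with adjusted p-values of 0.0442, 0.00884, 0.0119 and 0.0141 in the edgeR quasi-likelihood test.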
